A study of Rattus norvegicus and Homo sapiens with 12 samples.

Results

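The interleukin-6 (IL-6) family was followed here through 10 human genes in the DU145 prostate cancer (PCa) cell line. They encode 3 cytokines (IL6, LIF and IL11), 4 receptor subunits (IL6R, IL6ST, LIFR and OSMR), 2 feedback inhibitors (SOCS1 and SOCS3) and 1 kinase induced by the pathway (PIM1). The genes were chosen by name for their place in the pathway, with earlier results of these data known. They were found by Ensembl identifier among the 60107 genes listed in the human count table. All 10 were listed and 8 had enough reads to be tested.

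Parental DU145 cells (F0) were compared with DU145 cells that had survived exposure to conditioned medium from human mesenchymal stem cells (MSC CM) and had grown out again (F2), in 3 libraries of each. The sample labels give 2 rounds of 72 h in MSC CM for F2, whereas the series text describes a further repeat, making 3. Both populations were grown in DMEM with 10% serum, and F0 cells received no MSC CM. DU145 is an established line from a brain metastasis of prostate carcinoma. RNA was described as taken from biological replicates in triplicate, but not whether each F2 replicate was selected separately, so the p-values below measure only the spread between these libraries, which may be technical. Rat PAIII libraries of the same series were not analysed here.

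IL-6 family cytokines signal through receptor complexes that share the subunit gp130, encoded by IL6ST. IL-6 and IL-11 bind gp130 through their own alpha receptors, LIF pairs it with LIFR, and oncostatin M pairs it with OSMR. The engaged complex activates JAK kinases, which phosphorylate STAT3. STAT3 then induces SOCS3, which binds gp130 and the JAKs and shuts the signal off, and PIM1, a serine/threonine kinase that favours survival and proliferation. In PCa the family is known for IL-6, which tumour cells and bone marrow stroma can both secrete. These libraries measure mRNA only, and neither secreted cytokine nor phosphorylated STAT3 is seen in them.

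Gene counts ranged from 16029876 to 16479239 per F0 library and from 15879480 to 16217918 per F2 library. The libraries of the 2 populations did not share a range in some technical measures: reads outside annotated genes made up 9.60% to 10.0% of uniquely placed reads in F0 and 11.3% to 11.9% in F2, and mitochondrially encoded genes took 5.71% to 6.0% of gene counts in F0 and 10.2% to 10.6% in F2. Leaving those genes out of the scaling changed no call of a member. Each mRNA molecule contributes about 1 tag from its 3′ end in this method. Levels, given as CPM (counts scaled to a common library size), were therefore compared between genes without division by length. KLK2 had no counts in any library and KLK3 and TMPRSS2 had at most 2. All 5 epithelial markers (KRT8, KRT18, KRT19, EPCAM and CDH1) were expressed, and 4 were higher and CDH1 lower in F2. Of 15 markers of MSCs and stroma, 10 were at 3 counts or fewer in every library, with THY1, LUM, POSTN, SPARC and CXCL12 at 0. Without NT5E, which DU145 itself expressed, their summed level was 5.96 to 7.57 CPM in F0 and 4.21 to 5.07 CPM in F2. NT5E was called higher in F2, at 158 CPM in F0 against 222 CPM in F2. Its part in the results below was not tested. In bulk RNA, a change in the share of cells that express a gene cannot be told apart from a change in its level per cell.

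Many mRNAs of this family carry AU-rich elements, copies of the pentamer ATTTA in the 3′ untranslated region (UTR) to which decay factors of the ZFP36 family bind, preferring the nonamer TTATTTATT. Motifs were counted on the sense strand of the principal GENCODE transcripts, overlapping copies included. The pentamer was found in the 3′ UTR of 9 of the 10 genes, SOCS1 being the exception. It is common: 62.9% of protein-coding genes with a 3′ UTR of at least 500 bases held it in the last 500. Among protein-coding 3′ UTRs of similar length, 0.858% held at least as many pentamers as IL6. The share was 6.18% for IL11, 7.68% for LIFR and 12.3% for IL6ST. It was 22.9% for OSMR, 23.4% for PIM1, 42.4% for SOCS3, 51.6% for LIF and 70.5% for IL6R. The nonamer was found in 5 of the 10 genes. IL11 held 6 nonamers, PIM1 3, LIF 2, OSMR 2 and LIFR 1. Among protein-coding 3′ UTRs of similar length, 0.154% held at least as many nonamers as IL11 and 0.433% as many as PIM1, against 2.63% for LIF, 2.31% for OSMR and 28% for LIFR. A stretch of 30 bases is given for each of 6 genes, picked for the most pentamers, and around a nonamer where the gene had one. The stretches therefore show the densest packing and not the typical one. Pentamers and nonamers are in capitals (GRCh38, 5′ to 3′ on the strand of the gene).
IL6, chr7:22731931-22731960, plus strand: tATTTAtattgtATTTAtataatgtataaa
LIF, chr22:30240957-30240986, minus strand: ctccgggcccTTATTTATTATTTAaacatt
IL11, chr19:55365938-55365967, minus strand: tcTTATTTATTTATTTATTtcagtactggg
OSMR, chr5:38935443-38935472, plus strand: ttgtcagcATTTATTTATTTAtgtaccttt
SOCS3, chr17:78356825-78356854, minus strand: gcacatATTTAtATTTAtattcagaaaaga
PIM1, chr6:37174993-37175022, plus strand: ATTTATTTATTTATTTATTtggttcccttc
In the IL11, OSMR and PIM1 stretches the pentamers overlap end to end, whereas in IL6 and SOCS3 they stand apart. The matches describe the reference sequence, and binding was not measured.

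Whether the MSC-selected cells express this pathway differently from the parental cells was asked first over all members. Of the 8 tested genes, 4 were higher in F2 at an adjusted p under 0.05 (edgeR's quasi-likelihood test, Benjamini-Hochberg adjusted over 14316 tested genes) and 0 were lower. IL11, SOCS3, PIM1 and IL6R were the genes that rose. Changes were common in this comparison: 18.2% of all tested genes passed the threshold, 9.49% higher and 8.67% lower in F2. The median log2 fold change of the 8 genes was 0.26, with 6 above and 2 below 0, against -0.0025 over all tested genes. At an unadjusted p under 0.05 the count was 7 of 8, against 4396 of 14316 over all tested genes. The F2 libraries stood entirely above the F0 libraries for 5 of the 8 (LIF, IL11, IL6R, SOCS3 and PIM1), against 34% of all tested genes whose populations did not overlap in either direction. With 8 genes, chosen with earlier results of these data known, these shares are descriptions and not an independent test. Each of the 8 had at least 269 counts in every library, so none of them passed the filter on low counts through 1 population alone.

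**Figure D1:**
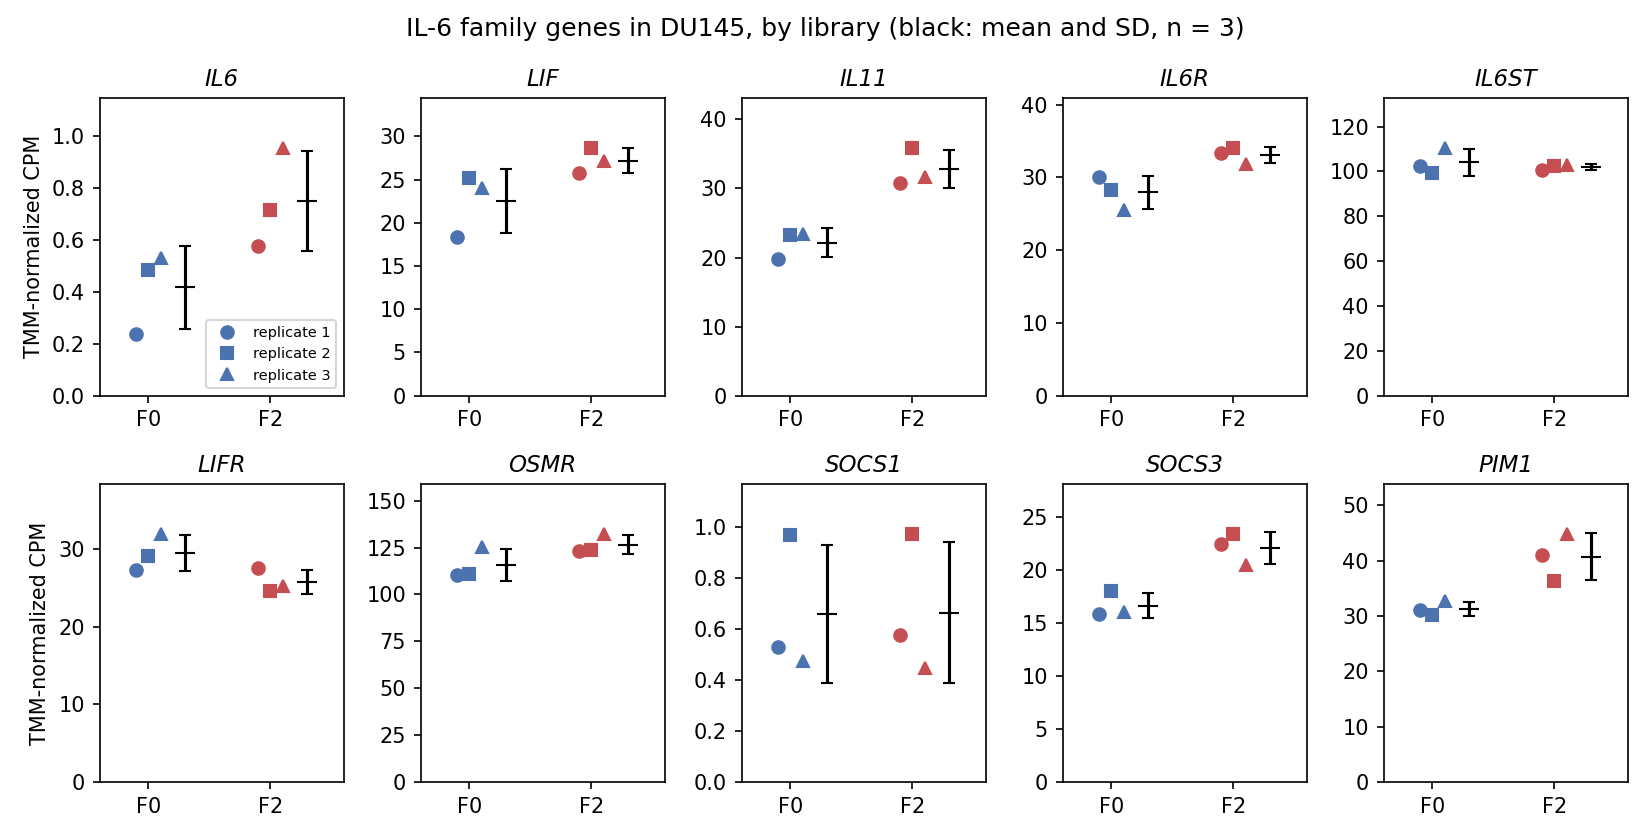
TMM-normalized CPM of the 10 genes, 1 panel per gene with its own linear axis from 0, in the 3 F0 (blue) and 3 F2 (red) DU145 libraries. Symbols mark the replicate number, and black bars give the mean and SD. OSMR and IL6ST lay near or above 100 CPM in both populations, 6 genes lay between 15.9 and 44.8 CPM, and IL6 and SOCS1 stayed below 1 CPM.

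The receptors OSMR and IL6ST were the most abundant transcripts of the 10. In F0 their means were 116 ± 8.44 and 104 ± 5.95 CPM (SD, n = 3), with overlapping libraries, and they ranked at the 88.4th and 87th percentile of tested genes. PIM1, LIFR and IL6R followed between 25.5 and 32.7 CPM, each overlapping the next. LIF and IL11 came after them and overlapped each other, then SOCS3 apart from both, and finally SOCS1 and IL6, which overlapped. The order differed in F2 through LIFR, which ranked 4 in F0 and 7 in F2, below IL6R, IL11 and LIF, and through IL11, which ranked 7 in F0 and 5 in F2. SOCS1 and IL6, ranked 9 and 10 in F0, also traded places, with overlapping libraries in both populations. In F2, PIM1 was apart from the next gene, and LIFR overlapped LIF. OSMR and IL6ST no longer overlapped there, at 123 to 132 and 101 to 103 CPM.

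Among the cytokines, IL11 showed the largest rise of the tested members. IL-11 signals through IL11RA and gp130 and is a known product of tumour cells in bone, where it promotes osteoclast formation. IL11 (ENSG00000095752, chr19:55364389-55370463, minus strand, GRCh38) was measured at 19.7, 23.3 and 23.4 CPM in F0 replicates 1 to 3 and 30.8, 35.9 and 31.7 CPM in F2 replicates 1 to 3. Every F2 library lay above every F0 library, with a gap wider than the spread within F0. The mean was 22.1 ± 2.09 CPM in F0 against 32.8 ± 2.75 CPM in F2 (SD, n = 3), a 1.48-fold difference. Its log2 fold change was 0.57 (SE 0.088, 95% interval 0.38 to 0.75, adjusted p = 0.000126), and it passed the threshold in each of the 6 fits that left out 1 library, between 0.49 and 0.61. IL11 overlaps no other annotated gene, so its reads have a single annotated origin.

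By its profile over the 6 libraries, IL11 was most like 3 genes out of 10158 with a mean of at least 5 CPM. These were MIR22HG, the host transcript of a microRNA, with a log2 fold change of 0.57, ACOX2, a peroxisomal oxidase of bile acid precursors, with 0.57, and ATP8B1, a phospholipid flippase, with 0.56. Their root mean square difference from IL11 in centred log2 CPM was 0.036, 0.059 and 0.063. With 3 libraries in each population, such likeness rests largely on the size of the rise.

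LIF, which acts through LIFR and gp130, was at 18.4, 25.2 and 24.0 CPM in F0 against 25.8, 28.7 and 27.1 CPM in F2. The populations did not overlap, but F0 replicate 2 came within 1 CPM of F2 replicate 1, and F0 replicate 1 stood below the other F0 libraries. LIF (ENSG00000128342, chr22:30240447-30246851, minus strand) had a log2 fold change of 0.27 (SE 0.10, 95% interval 0.061 to 0.48, adjusted p = 0.0697), which missed the threshold. Without F0 replicate 1 the difference was 0.14. Leaving out F0 replicate 2 raised it to 0.36 (adjusted p = 0.0486). An antisense gene, LIF-AS1, overlaps its 3′ end and had between 1 and 7 counts.

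IL6 itself was close to the limit of detection. The gene (ENSG00000136244, chr7:22725884-22732002, plus strand) received 4, 8 and 9 counts in F0 and 9, 11 and 15 in F2, or 0.236, 0.485 and 0.533 CPM against 0.575, 0.714 and 0.956 CPM. It fell below the filter on low counts. The summed counts were 21 in F0 and 35 in F2, a depth-corrected ratio of 1.80 with an exact binomial interval of 1.02 to 3.25 that covers counting error only. The 3 F2 values lay above the 3 F0 values, for which the two-sided exact permutation test gives p = 0.1, the smallest p possible with 3 against 3. In an edgeR fit without the filter the log2 fold change was 0.83 (SE 0.51, adjusted p = 0.381). A difference in IL6 was thus not resolved at this depth. Its 5′ part is overlapped by STEAP1B and an antisense transcript on the opposite strand. At these levels IL6 was exceeded by IL11 and LIF in every library. Its 6 pentamers, of which 2 are in the stretch printed above, are a count reached by 0.858% of 3′ UTRs of similar length.

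The 4 receptor subunits differed less between the populations, with estimates on both sides of 0. Their summed level was 268 to 294 CPM in F0 and 285 to 292 CPM in F2, which overlap, whereas the 3 cytokines summed to between 38.3 and 48.9 CPM in the parental libraries and between 57.1 and 65.3 CPM after selection. IL6R (ENSG00000160712, chr1:154405193-154469450, plus strand), the alpha receptor that binds IL-6 before gp130 joins, was the only one past the threshold. Its values were 30.1, 28.2 and 25.5 CPM in F0 against 33.3, 34.1 and 31.8 CPM in F2. All F2 libraries were above all F0 libraries, F0 replicate 1 coming nearest. The rise was 1.18-fold, with a log2 fold change of 0.24 (SE 0.078, 95% interval 0.081 to 0.41, adjusted p = 0.0344). That call was a narrow one: the adjusted p was 0.0956 without F0 replicate 2, 0.158 without F0 replicate 3, 0.0996 without F2 replicate 1 and 0.0748 without F2 replicate 2. With DESeq2 it was 0.0627, and with scaling by library size alone 0.158. Reads at the 3′ end do not separate membrane-bound from soluble forms of the receptor.

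IL6ST (ENSG00000134352, chr5:55935095-55994993, minus strand), the shared subunit gp130, was at 102, 99.1 and 111 CPM in F0 against 101, 103 and 103 CPM in F2. The populations overlapped fully, and the F2 libraries were the more tightly grouped. The log2 fold change of -0.028 had a 95% interval of -0.14 to 0.082 (adjusted p = 0.760). Its standard error was the smallest of the 8. A pseudogene, AC016596.1, overlaps it and had 21 to 41 counts.

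OSMR and LIFR, the partners that gp130 takes for oncostatin M and LIF, are near neighbours on chromosome 5. OSMR (chr5:38845858-38945596, plus strand, ENSG00000145623) was at 110, 111 and 125 CPM in F0 against 123, 124 and 132 CPM in F2. F0 replicate 3 lay within the F2 range and the other F0 libraries below it. RICTOR, on the opposite strand, overlaps the annotated gene from position 38937919 to its end and had 265 to 327 counts. The 3′ UTR of the principal OSMR transcript ends before this overlap, at 38935641. The log2 fold change of OSMR was 0.13 (SE 0.056, 95% interval 0.013 to 0.25, adjusted p = 0.119), and only the fit without F0 replicate 3 passed the threshold (0.19, adjusted p = 0.0285). LIFR (chr5:38474963-38608354, minus strand, ENSG00000113594) was at 27.3, 29.2 and 32.0 CPM in F0 against 27.6, 24.6 and 25.2 CPM in F2. F2 replicate 1 fell inside the F0 range and the other F2 libraries below it. With a log2 fold change of -0.19 (SE 0.082, 95% interval -0.36 to -0.020, adjusted p = 0.117), LIFR was the tested member with the lowest estimate, and it missed the threshold. With scaling by library size alone it passed as lower (-0.28, adjusted p = 0.0179) while IL6R did not pass, so that the members were then 3 higher and 1 lower.

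SOCS3, the feedback inhibitor of gp130 signalling, rose in F2. The gene (ENSG00000184557, chr17:78356778-78360077, minus strand) was measured at 15.9, 18.0 and 16.0 CPM in F0 against 22.5, 23.4 and 20.5 CPM in F2. The lowest F2 library was above the highest F0 library. Means were 16.7 ± 1.21 and 22.1 ± 1.52 CPM (SD, n = 3), a 1.33-fold difference. The log2 fold change was 0.41 (SE 0.093, 95% interval 0.22 to 0.60, adjusted p = 0.00392) and stayed between 0.37 and 0.47 when any 1 library was left out, past the threshold each time.

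SOCS1, an inhibitor that binds JAK kinases directly and is best known for restraining interferon signalling, was scarcely detected. It received 9, 16 and 8 counts in F0 and 9, 15 and 7 in F2, and its populations overlapped completely. The ratio of the depth-corrected sums was 1.01 with a counting interval of 0.60 to 1.71, and the two-sided exact permutation test gave p = 0.9. SOCS1 (ENSG00000185338, chr16:11254405-11256200, minus strand) lies entirely within RMI2, which is transcribed from the opposite strand and had 615 to 780 counts. The strand setting of the counting is not given in the sources used here, and reads shared by overlapping genes may have been left out of both. The low SOCS1 level is therefore uncertain, and its comparison with SOCS3 as well.

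PIM1 (ENSG00000137193, chr6:37170203-37175426, plus strand) also rose in F2. It was at 31.1, 30.1 and 32.7 CPM in F0 against 40.9, 36.3 and 44.8 CPM in F2. No F2 library reached down to the F0 range, although the F2 libraries were more spread out, with means of 31.3 ± 1.29 and 40.7 ± 4.27 CPM (SD, n = 3). The difference was 1.30-fold, with a log2 fold change of 0.38 (SE 0.079, 95% interval 0.21 to 0.54, adjusted p = 0.00211). Leaving out F2 replicate 3, the highest, lowered it to 0.30, still past the threshold.

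**Figure D2:**
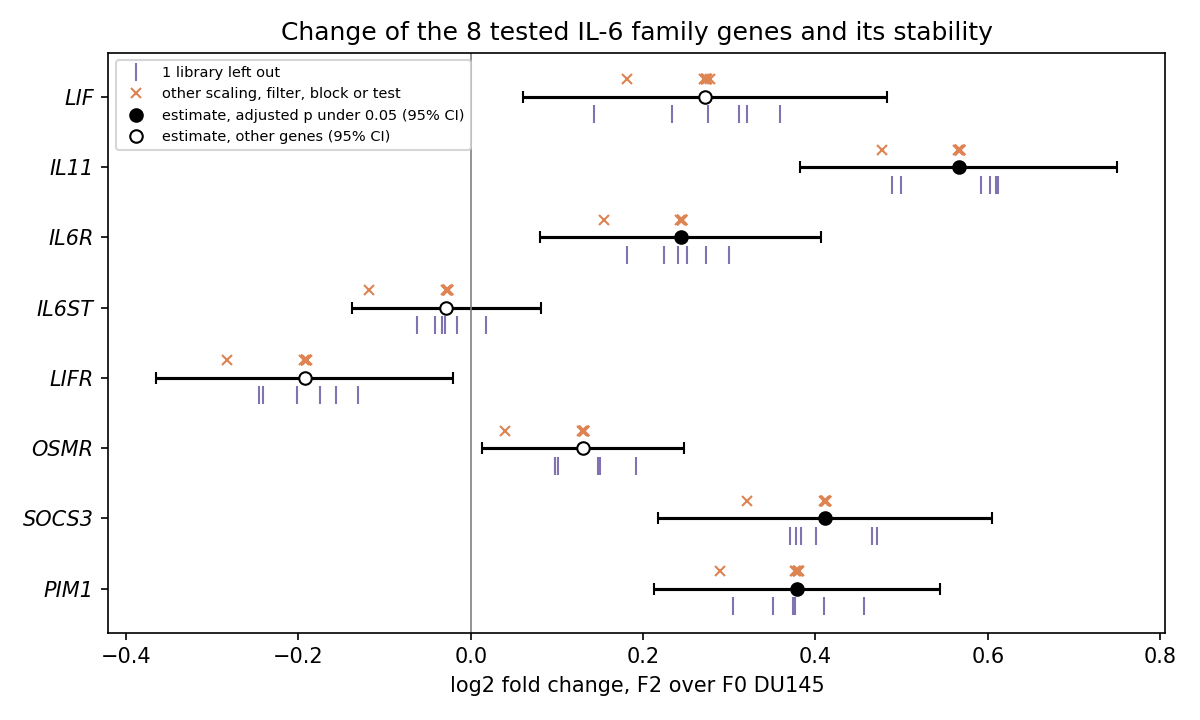
Log2 fold change, F2 over F0, of the 8 tested genes with 95% intervals from edgeR. Filled circles mark an adjusted p under 0.05, ticks below each estimate are the 6 fits that left out 1 library, and crosses above are the 7 fits with another scaling, filter, block or test. IL11, SOCS3 and PIM1 were above 0 in all of them, the lowest value being 0.29 for PIM1, while the ticks of IL6ST fell on both sides of 0.

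A list of 77 other genes of the pathway, also chosen with earlier results of these data known, gave the surroundings of these members. Of 62 tested, 24 passed the threshold (38.7%, against 18.2% of all tested genes): 7 were higher and 17 lower. The 17 include SAA1, which passed the filter on low counts through F0 alone. Their median was -0.11 on the log2 scale. Estimates were above 0 for 20 and below 0 for 42, and 35 of the 62 did not overlap between the populations, against 34% of all tested genes. The groups of this list below are small, and their counts are to be read against the same 18.2%. The balance of this list was thus towards lower values in F2, unlike that of the members. Scaling by library size alone, under which the median of all genes was -0.092, brought 34 past the threshold.

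Of 8 other ligands of the family, 5 were at 3 counts or fewer in every library. OSM, IL27 and IL31 had no counts at all, so oncostatin M mRNA was not detected at this depth beside its well-expressed receptor subunit. CLCF1, a ligand of the CNTF receptor, was at 31.9 CPM in F0 against 30.3 CPM in F2, a log2 difference of -0.070 (adjusted p = 0.594). Among 4 other receptor subunits, of which 3 were tested, IL27RA fell by 0.20 on the log2 scale (adjusted p = 0.0165), a call kept in 3 of 6 fits with 1 library left out. For IL11RA, the receptor for IL-11, the estimate was -0.24 (adjusted p = 0.110), which did not pass. ADAM17, a protease that sheds the IL-6 receptor from the cell surface, fell from 147 ± 8.04 to 118 ± 2.52 CPM (log2 fold change -0.31, adjusted p = 0.000198).

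Of the JAK and STAT genes, none rose past the threshold. STAT3, the main transcription factor below gp130, was lower in F2, at 231 ± 2.23 CPM, than in F0, at 270 ± 1.35 CPM (SD, n = 3), with a log2 fold change of -0.23 (adjusted p = 0.000763). The call held in each of the 6 fits with 1 library left out. JAK1 had a log2 fold change of -0.027, and JAK2 one of 0.30 that missed the threshold (adjusted p = 0.153).

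Of 13 other inhibitors of the pathway that were tested, 3 fell, 1 rose and 9 did not pass. SOCS2, a feedback inhibitor best known in growth hormone signalling, fell from 30.3 ± 2.14 to 20.5 ± 3.14 CPM (log2 fold change -0.57, adjusted p = 0.000377). SOCS6 fell by 0.38 on the log2 scale (adjusted p = 0.0144) and PIAS4, a SUMO ligase that acts on STATs, by 0.24 (adjusted p = 0.0328). PIAS1, of the same family, rose by 0.24 (adjusted p = 0.0169). The calls for SOCS6, PIAS4 and PIAS1 were kept in 4, 3 and 3 of the 6 fits with 1 library left out. PIAS4 missed the threshold with DESeq2 (adjusted p = 0.0597) and PIAS1 with scaling by library size alone (adjusted p = 0.112).

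Genes known to respond to STAT3 were divided: of 21 tested, 6 fell and 4 rose. VEGFA, the angiogenic growth factor, rose from 79.6 to 103 CPM (log2 fold change 0.37, adjusted p = 0.000106). The survival genes BCL2L1 and MCL1 rose by 0.24 and 0.19 on the log2 scale (adjusted p = 0.0213 and 0.00403), BCL2L1 in 4 of the 6 fits with 1 library left out. With scaling by library size alone neither passed (adjusted p = 0.132 for BCL2L1 and 0.0953 for MCL1). MUC1, a membrane mucin, fell from 12.0 ± 1.57 to 6.70 ± 0.675 CPM (log2 fold change -0.83, adjusted p = 0.000170). CEBPD, a transcription factor of the acute phase response, fell from 84.6 ± 4.87 to 54.2 ± 2.92 CPM (log2 fold change -0.64, adjusted p = 3.06e-07). SAA1, an acute phase protein, went from 19, 11 and 24 counts in F0 to 3, 3 and 2 in F2. It passed the filter on low counts through F0 alone, so it is given by its counts only, although it is among the 6 that fell. A near-identical copy, SAA2, makes its counts uncertain. The rise of SOCS3 and PIM1 was therefore not shared across the list.

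Genes that set IL6 expression were read last. Of 8 transcriptional regulators, 3 fell and 0 rose: NFKBIA, the inhibitor of NF-κB, went from 662 to 524 CPM (log2 fold change -0.34, adjusted p = 5.38e-06). NR3C1, the glucocorticoid receptor, fell by 0.34 on the log2 scale (adjusted p = 2.91e-05) and NFKB2 by 0.32 (adjusted p = 0.0116, kept in 3 of 6 fits with 1 library left out). Of 6 regulators of IL6 mRNA decay, 2 rose and 0 fell. ZC3H12A, the ribonuclease regnase-1 that cleaves IL6 mRNA, rose from 5.41 ± 1.20 to 9.54 ± 0.748 CPM (log2 fold change 0.82, adjusted p = 0.000870). ZFP36L1, a protein that binds AU-rich elements such as those printed above and promotes decay, rose from 411 ± 4.97 to 511 ± 6.08 CPM (log2 fold change 0.31, adjusted p = 1.62e-05). Both passed the threshold whichever library was left out.

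**Figure D3:**
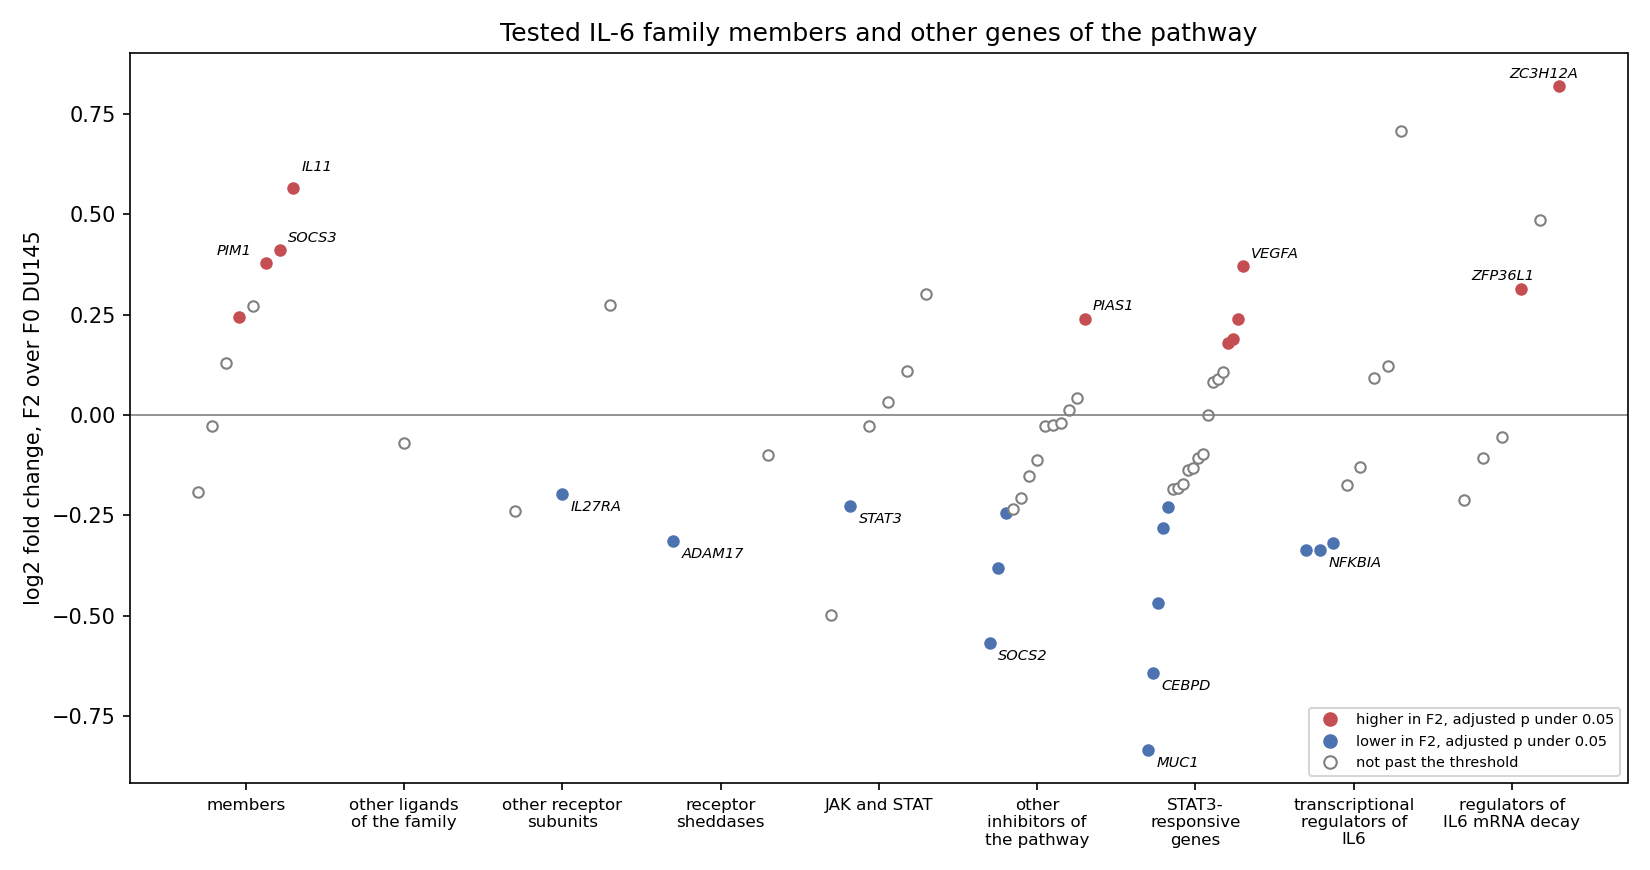
Log2 fold change, F2 over F0, of the tested members and of most tested genes of each group of the pathway list, ordered by size within a group. Red and blue mark genes higher and lower in F2 at an adjusted p under 0.05 (edgeR) and open circles the rest. The 4 called members are all above 0, whereas over the whole pathway list 17 genes fell and 7 rose. SAA1, with at most 3 counts in each F2 library, is among those not drawn.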

How the data were processed

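Libraries were made by the authors with the QuantSeq 3′ mRNA-Seq FWD kit and aligned and counted on the Bluebee platform. The submitters' processing notes name STAR 2.5.2a, HTSeq 0.6.0 and GRCh38, while the annotation and strand setting are not given in the sources used here. The deposited values are raw counts of reads per gene. Of the 12 libraries in the series, the 6 of DU145 were used. Identifiers were matched to symbols and positions through GENCODE 29 (GRCh38), where 56531 of 60107 were found, and 92 spike-in rows, all at 0, were left out.

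Low genes were removed with filterByExpr (at least 10 counts, 15 in total), and the rest were scaled by TMM and tested with edgeR 4.0.16 in R 4.3.3 (glmQLFit and glmQLFTest, no covariates, Benjamini-Hochberg over all tested genes, threshold 0.05). CPM used TMM-scaled library sizes. Gene counts were about equal in all 6 libraries, and IL6 and SOCS1 were the members too low to be tested. Alternatives were RLE scaling, library size alone, scaling without mitochondrially encoded genes, 2 other count filters, the replicate number as a block, DESeq2 1.42.0, and leaving out each library. Replicates differed by more than counting noise in every pair. The script was tested on simulated data.

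The members, the pathway list and the marker lists were chosen with earlier results of these data known. The text names all 10 members, STAT3, and, of each pathway group, at most 3 genes past the threshold in each direction with the largest change. CLCF1, IL11RA, JAK1, JAK2, OSM, IL27 and IL31 were named beyond this rule after their values were seen. Some results that fall under this rule are not reported here.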

Additional observations from a re-analysis of the deposited data

How the results depend on the processing

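The calls for IL11, SOCS3 and PIM1 held under all 7 other settings and all 6 fits without 1 library. The number of members past the threshold was 4 and ranged from 3 (DESeq2, and without F2 replicate 1 or 2) to 5, where LIF was added. With library size alone it was again 4, but 3 higher and 1 lower (LIFR in place of IL6R). IL6ST changed sign without F0 replicate 3, at 0.018 on the log2 scale, with a range of -0.062 to 0.018 over the fits without 1 library and no call in any. Over all genes, 2599 passed the threshold, 2091 with DESeq2 and 3637 with library size alone, where 832 were higher and 2805 lower against 1358 and 1241. Leaving out 1 library gave 1670 (without F0 replicate 2) to 2621. Same-numbered F0 and F2 libraries did not deviate together in every pair (correlations 0.136, -0.038 and 0.121), and replicate 2 did not correlate best with its own number, so the numbers were not taken as pairs. With the replicate block, 2867 genes and 5 members passed. Among 77 pathway genes, 24 passed, with 20 to 34 under the alternatives. Depth limits IL6 and SOCS1, which had at most 16 counts in a library.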
